A study of Mus musculus with 2 samples.

Results

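Levels of the Mir15, Mir16, Mir195 and Mir497 family of microRNAs were determined in embryonic mouse midbrain at day 12.5 of gestation (E12.5) by small RNA sequencing. Its members were chosen by gene symbol and not by level. The symbols Mir15a, Mir15b, Mir16-1, Mir16-2 and Mir195a were found in the count files, and Mir195, an older symbol that was also looked for, matched no row. Mir497 was added through the reads on the opposite strand of Mir497b. The family thus held 6 of 1973 genes listed. Both libraries came from midbrain of healthy B6NCrl embryos, males and females mixed, with no treatment named, and each was made from a pool. Replicate 1 pooled 120 embryos and replicate 2 pooled 88, and the labels call them biological replicates. With 1 tissue, 1 age and 1 group, no conditions were compared. The p-values given here weigh differences between the libraries against counting error alone and say nothing of a treatment.

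A microRNA is cut from a hairpin in a longer primary transcript, and either arm of the hairpin (the 5p or the 3p arm) can be loaded into an Argonaute protein. Bases 2 to 8 of the loaded strand, the seed, pair with messenger RNAs, which are then translated less or degraded. MicroRNAs with the same seed are counted as a family because they can bind the same sites. This family is known for holding back the cell cycle, with cyclin D1, cyclin E1 and the survival protein Bcl2 among its known targets. MIR15A and MIR16-1 lie in a region that is often deleted in human chronic lymphocytic leukaemia. The embryonic midbrain at this age is a tube of dividing progenitors with the first neurons at its outer side, together with vessels and the surrounding mesenchyme.

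The 5p arms are shown because they define the family. The capitals mark the seed, bases 2 to 8 counted from the 5′ end. The sequences are those of RefSeq on GRCm38.p6, the same assembly as the mm10 build of the counts, in which all 6 members matched a mature entry and 5 of them a hairpin entry, the exception being Mir15a.
miR-15a-5p, from Mir15a: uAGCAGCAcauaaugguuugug
miR-16-5p, from Mir16-1 and from Mir16-2: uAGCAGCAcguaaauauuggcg
miR-15b-5p, from Mir15b: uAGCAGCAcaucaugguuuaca
miR-195a-5p, from Mir195a: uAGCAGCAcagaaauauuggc
miR-497a-5p, from Mir497: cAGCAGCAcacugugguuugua

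The 5 different 5p sequences had 1 seed, AGCAGCA, and were equal from base 2 to base 9. They differed in the first base, where miR-497a-5p alone begins with c, and in the bases after the ninth. Compared position by position from the 5′ end, miR-16-5p and miR-195a-5p were the most alike, with 19 of 21 bases equal. The corresponding count was 18 of 22 for miR-15a-5p and miR-15b-5p, and 17 of 22 for miR-15a-5p and miR-497a-5p. The least alike were miR-16-5p and miR-497a-5p, with 11 of 22. The 6 sequences of the 3p arms had 6 different seeds, so the arms opposite the shared seed have no seed in common. The deposited counts are per gene and do not separate the arms.

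Identical copies limit what the counts of Mir16-1 and Mir16-2 hold. Their hairpins are shown around the 5p sequence, which is in capitals, with 5 bases on each side.
Mir16-1, chromosome 14, minus strand: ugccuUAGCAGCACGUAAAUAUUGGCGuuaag
Mir16-2, chromosome 3, plus strand: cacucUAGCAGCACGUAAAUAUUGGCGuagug
The run shared by both hairpins was 23 bases long, the 22 bases of miR-16-5p and 1 base after it. A read inside that run fits both places equally, and such reads were assigned to no gene in these files. The 3p arms can be told apart, since the longest run that they have in common is 9 bases. They are shown with their seeds in capitals.
miR-16-1-3p: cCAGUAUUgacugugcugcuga
miR-16-2-3p: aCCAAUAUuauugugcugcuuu
A read of exactly the 22 bases of miR-16-5p lies inside the shared run, so it counts for neither gene. The counts of Mir16-1 and Mir16-2 are therefore counts of reads that aligned to 1 place, and they do not measure miR-16-5p. How many of its reads they miss was not tested. Among the 1005 hairpins of the RefSeq table, the 5p sequences of Mir15b, Mir195a and Mir497 were each found in 1, their own. The longest stretch of miR-195a-5p in another hairpin was 16 bases, in Mir195b, and the longest of miR-15a-5p was 11, in Mir15b.

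The members lie in 3 pairs. On mm10, Mir15a (ENSMUSG00000093007.1) is at chr14:61632027-61632110 on the minus strand and lies within an intron of Dleu2, a long non-coding RNA gene. Mir16-1 (ENSMUSG00000092995.1) is at chr14:61631880-61631972, 54 bases away, and overlaps an exon of Dleu2. Mir15b (ENSMUSG00000065580.1) is at chr3:69009772-69009835 on the plus strand and Mir16-2 (ENSMUSG00000065606.1) at chr3:69009902-69009996, 66 bases away. Both are in an intron of Smc4, which encodes a subunit of the condensin complex that compacts chromosomes in mitosis. Mir497 is at chr11:70234717-70234800 on the plus strand and Mir195a (ENSMUSG00000065411.2) at chr11:70235042-70235135, 241 bases away. GENCODE M21 lists no host gene for Mir195a on either strand. Mir497b (ENSMUSG00000070109.2), on the minus strand at chr11:70234692-70234816, covers all 84 bases of the Mir497 hairpin.

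Replicate 1 held 4629302 reads assigned to a microRNA gene on its own strand and replicate 2 held 2805487. Another 33.4% of all reads aligned to several places in each library and count for no gene. Levels are given in CPM, counts per 1000000 of the assigned own-strand reads. A count of 3, the most that a measured 0 allows, is 0.648 CPM in the first library and 1.07 CPM in the second. The 95% intervals, by Wilson's method, and these floors cover counting error only, since amplified reads without molecular identifiers are not independent molecules. The neural markers summed to 8333 CPM in replicate 1 and 7507 CPM in replicate 2, mostly from Mir137 and Mir153. Of these markers only Mir128-1 and Mir128-2 were lower in replicate 1. Mir128-1 had 176 CPM in replicate 1 and 268 CPM in replicate 2, and Mir128-2 had 73.9 CPM in replicate 1 and 119 CPM in replicate 2. The 9 of 10 listed neural markers that had a row all had reads in both libraries, though Mir124a-1 had 3 counts in replicate 2, which is no more than that floor.

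All 6 members were detected well above the floor in both libraries, and their reads together came to 1.28% ± 0.03 of the own-strand total (SD, n = 2). That total does not hold the opposite-strand reads over Mir497, which are in the members' sum. Their summed level was 12586 CPM in replicate 1, from 58263 reads, and 12968.5 CPM in replicate 2, from 36383 reads. Mir15a, the most abundant, and Mir195a, the least abundant, stood 10.8-fold apart in mean level. In a bulk tissue, fewer cells with a microRNA and less of it per cell cannot be told apart.

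Mir15a stood at 5408 CPM in replicate 1 (interval 5341 to 5475 CPM) and at 5707 CPM in replicate 2 (5619.9 to 5796 CPM). Its mean of 5558 ± 212 CPM (SD, n = 2) placed it 40th among 1974 ranked rows, which are the listed genes and the Mir497 reads. Mir16-1, its neighbour in Dleu2, had 3321 CPM in replicate 1, from 15373 reads, and 3204 CPM in replicate 2, from 8990 reads. With a mean of 3263 ± 82.3 CPM it ranked 59th. The Dleu2 pair thus carried most of the family's reads with 1 place in the genome, 69.4% in replicate 1 and 68.7% in replicate 2.

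Mir15b, in Smc4, had 1958 CPM in replicate 1 and 2175 CPM in replicate 2, a mean of 2067 ± 154 CPM (SD, n = 2) at rank 72. Mir16-2, from the same intron, had 807 CPM in replicate 1, from 3734 reads, and 671 CPM in replicate 2, from 1883 reads, a mean of 739 ± 95.8 CPM at rank 116. The Smc4 pair held 22.0% of the family's reads with 1 place in replicate 1 and 21.9% in replicate 2. Both genes of the Dleu2 pair were above their Smc4 counterparts in both libraries. Mir15a was 2.76-fold higher than Mir15b in replicate 1 and 2.62-fold in replicate 2. Mir16-1 was 4.12-fold higher than Mir16-2 in replicate 1 and 4.77-fold in replicate 2, counting only reads with 1 place in the genome.

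The pair on chromosome 11 was the lowest. The reads over Mir497 numbered 2869 in replicate 1 and 1827 in replicate 2, which is 619.7 CPM in replicate 1 and 651 CPM in replicate 2, and the mean was 635 ± 22.3 CPM (SD, n = 2) at rank 126. Mir195a, known in mice for curbing the division of heart muscle cells after birth, had 473 CPM in replicate 1, from 2189 reads, and 559 CPM in replicate 2, from 1568 reads, with a mean of 516 ± 60.8 CPM at rank 132. Together these genes held 8.68% of the family's reads with 1 place in replicate 1 and 9.33% in replicate 2. By comparison the median mean level over the 381 quantified rows (at least 10 counts in both libraries) was 148 CPM, below every member. Of the 98 rows at 1000 CPM or more, 3 were members.

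**Figure D1:**
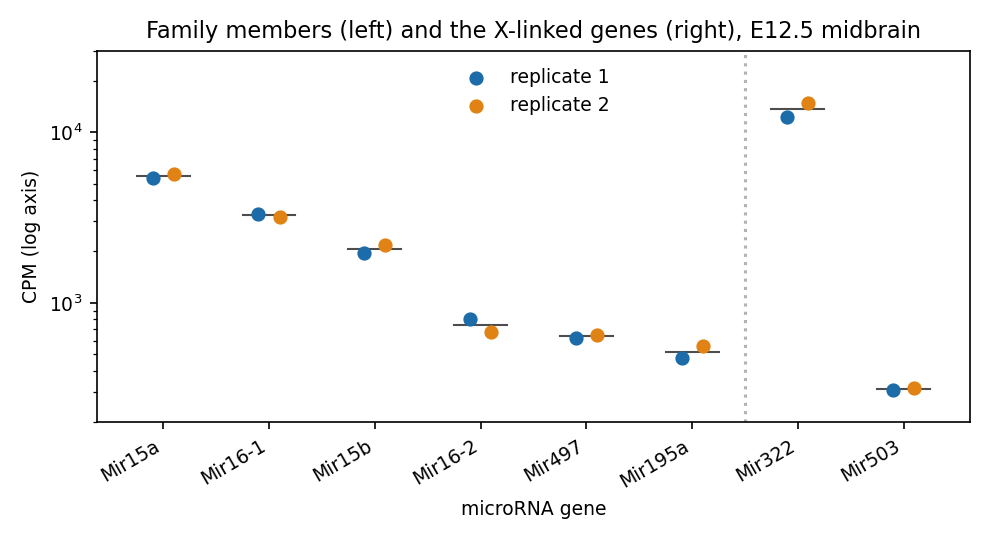
Level in CPM (log axis) of the 6 family members and, right of the dotted line, of Mir322 and Mir503 on the X chromosome, with 1 point per library and a line at the mean of both. The members run from Mir15a at 5408 and 5707 CPM down to Mir195a at 473 and 559 CPM, and Mir322 lies above all of them.

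In order of mean level the members were Mir15a, Mir16-1, Mir15b, Mir16-2, Mir497 and Mir195a, and no neighbours in this order overlapped in their ranges over the libraries. The first steps were wide, at 1.70-fold from Mir15a to Mir16-1, 1.58-fold from Mir16-1 to Mir15b and 2.80-fold from Mir15b to Mir16-2. The step from Mir16-2 to Mir497 was 1.30-fold in replicate 1 but 1.03-fold in replicate 2. In replicate 2 the interval of Mir16-2 (642 to 702 CPM) overlapped that of Mir497 (622 to 682 CPM), so their order was not resolved there. Mir497 exceeded Mir195a by 1.31-fold in replicate 1 and by 1.17-fold in replicate 2. The order of the Mir16 genes relative to the rest rests on reads with 1 place in the genome.

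The 3 genes outside the family whose levels were closest to those of Mir15a, by Euclidean distance in log2(CPM + 1) over the 2 libraries, were Mir298, Mir411 and Mir431. Mir298 had 4964 CPM in replicate 1 and 5533 CPM in replicate 2, at a distance of 0.13. Mir411 had 5985 CPM in replicate 1 and 5296 CPM in replicate 2, at a distance of 0.18. Mir431 had 5868 CPM in replicate 1 and 5010.2 CPM in replicate 2, at a distance of 0.22. With 2 libraries of 1 tissue, this likeness is one of level only.

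Within the pairs, the Mir15 gene gave more counts than its Mir16 neighbour, and Mir497 more than Mir195a, in both libraries. Mir15a took 62.0% of the Dleu2 pair in replicate 1 (interval 61.5 to 62.4%) and 64.0% in replicate 2 (63.4 to 64.6%). Mir15b took 70.8% of the Smc4 pair in replicate 1 (70.0 to 71.6%) and 76.4% in replicate 2 (75.5 to 77.3%). Mir195a took 43.3% of its pair in replicate 1 (41.9 to 44.6%) and 46.2% in replicate 2 (44.5 to 47.9%). The intervals of the chromosome 11 pair met between 44.5 and 44.6%. So narrow an overlap does not show equal shares, and whether this pair differed beyond counting error was not tested. For the Dleu2 and Smc4 pairs the intervals of the libraries did not overlap. The ratio of counts within the Dleu2 and Smc4 pairs thus differed between the libraries by more than counting error. Reads of miR-16-5p that fit both Mir16 places are missing from the lower part of both pairs.

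**Figure D2:**
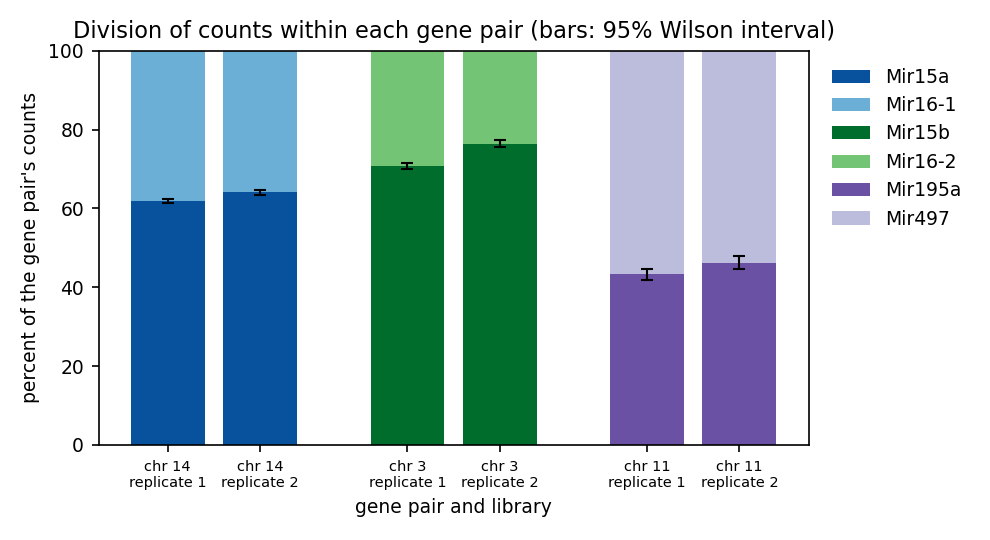
Percent of each pair's counts that fell on either gene, for the pairs on chromosomes 14, 3 and 11, with 1 bar per library and the 95% Wilson interval at the boundary. Mir15b took 70.8% of its pair in replicate 1 and 76.4% in replicate 2, the widest shift of the 3 pairs.

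The libraries were then compared gene by gene, as log2 ratios of replicate 1 over replicate 2, with Fisher's exact test and Benjamini-Hochberg adjustment over all 381 quantified rows. Of these rows, 54.1% were called at an adjusted p under 0.05, 27.0% higher and 27.0% lower in replicate 1. Of the 6 members, 5 were called, 2 higher and 3 lower in replicate 1. Among the 87 other rows between the lowest and the highest member in mean level, 69 (79.3%) were called, a share close to that of the members. The members' differences were small. Their median absolute log2 ratio was 0.11, against 0.23 for those 87 rows and 0.23 for all rows tested, and all 6 stayed within 1.5-fold, as did 74 of the 87. The signed median was -0.07 for the members and -0.04 for all rows.

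Both Mir16 genes were higher in replicate 1. Mir16-2 had a log2 ratio of 0.27 ± 0.04 (counting SE, Fisher's exact test, adjusted p = 1.89e-10), which is 1.20-fold. Mir16-1 had 0.05 ± 0.02 (Fisher's exact test, adjusted p = 0.0151), a difference of 1.04-fold. The Mir16-1 call was lost with TMM library sizes (exact binomial test, log2 ratio 0.02, adjusted p = 0.311). Over its 5 alternatives the adjusted p of Mir16-1 ran from 1.33e-05 to 0.311.

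Mir195a, Mir15b and Mir15a were lower in replicate 1. Their log2 ratios were -0.24 ± 0.05 for Mir195a (counting SE, Fisher's exact test, adjusted p = 1.49e-06), -0.15 ± 0.02 for Mir15b (adjusted p = 7.61e-10) and -0.08 ± 0.01 for Mir15a (adjusted p = 2.85e-07). The reads over Mir497 were not called, with -0.07 ± 0.04 (Fisher's exact test, adjusted p = 0.162). With TMM library sizes they were called, at a log2 ratio of -0.10 (exact binomial test, adjusted p = 0.0412), and over the 5 alternatives the adjusted p ran from 0.0412 to 0.549. The difference between the log2 ratios of Mir15b and Mir16-2, which share an intron, was -0.42, and that between Mir15a and Mir16-1 was -0.13. Each Mir16 gene thus stood apart from its neighbour in the same direction. In size, a difference within a pair was not particular to the Mir16 genes, since that between Mir195a and Mir497 was -0.17. Whether the difference between Mir195a and Mir497 exceeded counting error was not tested.

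**Figure D3:**
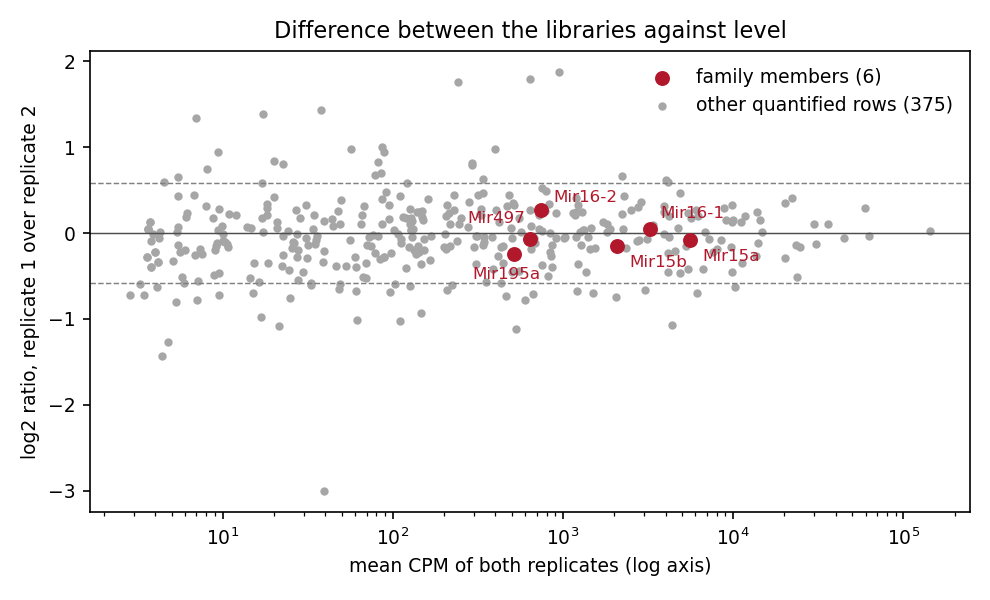
Log2 ratio of replicate 1 over replicate 2 against mean CPM (log axis) for the 6 members and the other quantified rows, with dashed lines at 1.5-fold. All members lie between -0.24 and 0.27, inside the dashed lines.

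Markers of other cell types also differed between the libraries. The 4 of 5 mesenchymal and mural markers that were found summed to 11137 CPM in replicate 1 and 17297 CPM in replicate 2, mostly from Mir143 and Mir214. The symbol Mir145 matched no row, and Mir145a, which has a row, is not in this sum. Mir145a had 132 CPM in replicate 1 and 147 CPM in replicate 2 and was not called (Fisher's exact test, adjusted p = 0.162). The 4 choroid plexus and ciliated cell markers summed to 3250.4 CPM in replicate 1 and 1431 CPM in replicate 2, carried by Mir449a (1492 CPM in replicate 1 and 406 CPM in replicate 2) and Mir204 (995 CPM in replicate 1 and 286 CPM in replicate 2), while Mir34c had 739 CPM in replicate 1 and 713 CPM in replicate 2 and Mir34b 24.8 CPM in replicate 1 and 26.7 CPM in replicate 2. The 5 Hox cluster markers, of which Mir196a-1 was at 0, summed to 214 CPM in replicate 1 and 400.3 CPM in replicate 2, and the liver marker Mir122 had 8.64 CPM in replicate 1 and 69.5 CPM in replicate 2. Endothelial Mir126a stood at 23434 CPM in replicate 1 and 26242.5 CPM in replicate 2. The 3 of 4 leukocyte markers that were found summed to 566 CPM in replicate 1 and 686 CPM in replicate 2. Mir223 and Mir150 were lower in replicate 1. Mir155 was higher there, with 265 CPM in replicate 1 and 235 CPM in replicate 2 (Fisher's exact test, adjusted p = 0.0302). The 3 erythroid markers summed to 413 CPM in replicate 1 and 271 CPM in replicate 2. Of these, Mir451a had 373 CPM in replicate 1 and 212 CPM in replicate 2. Mir486 was higher in replicate 2, with 13.8 CPM in replicate 1 and 29.2 CPM in replicate 2. Mir144 had 25.7 CPM in replicate 1 and 29.6 CPM in replicate 2 and was not called (Fisher's exact test, adjusted p = 0.462). Of the 5 muscle markers 4 were found and 1 of these, Mir206, was detected, at 22.2 CPM in replicate 1 and 22.8 CPM in replicate 2. Mir1a-1, Mir133a-1 and Mir133a-2 were at 0. Reads that fit several places count for no gene, so low or 0 counts of markers with several gene copies do not show absence. Such markers include Mir1a, Mir133a, Mir196a, Mir124a and Mir9, and how many reads they lost this way was not tested. The part that other cell types have in the members' levels or in their differences was not tested.

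The seed of the family is also carried by genes outside the list of symbols chosen here, and the word members refers to that list only. In the RefSeq table, 11 genes had a mature sequence with AGCAGCA at bases 2 to 8, and all 11 could be read from the files, Mir497 by the opposite strand. The X-linked neighbours Mir322 and Mir503 are shown with the same bases in capitals because of their place beside the family.
miR-322-5p, from Mir322: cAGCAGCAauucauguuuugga
miR-503-5p, from Mir503: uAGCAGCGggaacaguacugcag
Mir503 matches at 6 of the 7 seed bases. Mir322 had 12316 CPM in replicate 1 and 14854 CPM in replicate 2, against 12586 CPM in replicate 1 and 12968.5 CPM in replicate 2 for the sum over the 6 members, and a log2 ratio of -0.27 ± 0.01 (counting SE, Fisher's exact test, adjusted p = 4.76e-185). Mir503 had 308 CPM in replicate 1 and 316 CPM in replicate 2, below every member.

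Of the reads over genes with this seed, the 6 members together held 50.5% in replicate 1 and 46.6% in replicate 2, and Mir322 held the remainder. The members' sum was 1.02-fold that of Mir322 in replicate 1 and 0.873-fold in replicate 2, so which was higher differed between the libraries. The members' sum lacks the miR-16-5p reads that fit both Mir16 places, and their part in this order was not tested. The whole seed group came to 26362 ± 2066 CPM (SD, n = 2). The other 4 genes with the seed, Mir195b, Mir6342, Mir6353 and Mir6419, had 0 reads in both libraries, which allows up to 0.648 CPM in replicate 1 and 1.07 CPM in replicate 2. Reads of both arms are in these gene counts, so they are not counts of the seed itself.

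**Figure D4:**
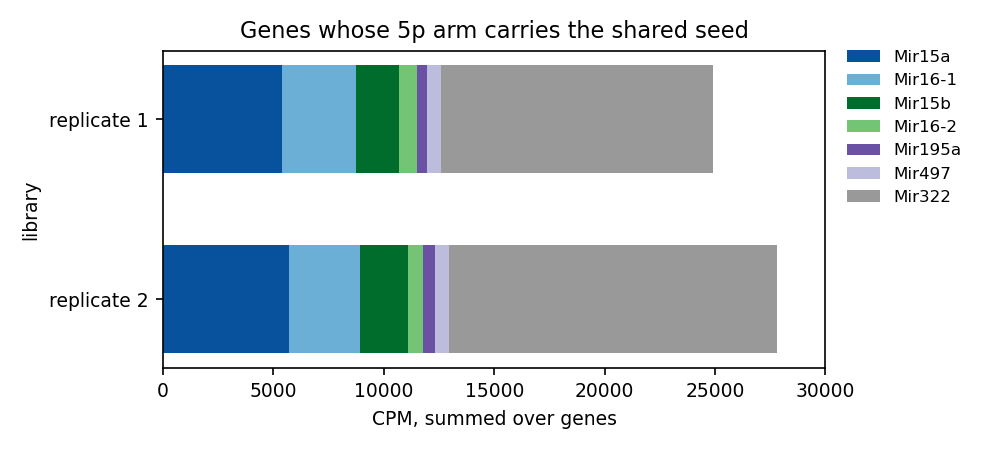
CPM summed over the genes whose 5p arm carries the seed AGCAGCA, with 1 bar per library and 1 colour per gene. The 6 members make up 50.5% of the bar in replicate 1 and 46.6% in replicate 2, and Mir322, in grey, the rest.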

How the data were processed

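MicroRNA sequencing libraries (RNA below 30 nucleotides, per the labels) of 2 pools of embryos were analysed. The authors deposited raw counts of reads per gene, without normalization, from alignments to mm10 with annotation M4, per the deposited read-me files. No source used here names the aligner or the counter. Each file has 3 count columns: either strand, own strand and opposite strand. The own-strand column held 97.6% and 97.5% of the either-strand reads and was used, except for the Mir497b row. Rows that name no gene, 56.9% of replicate 1 and 58.2% of replicate 2, stayed out of totals and tests. Symbols came from GENCODE M21, which held 1894 of the 1973 identifiers.

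Levels are CPM of the own-strand total. Rows with at least 10 counts in both libraries were compared by Fisher's exact test, two-sided, of a row's count and the remaining assigned counts (SciPy 1.17.1, checked on simulated data). P-values were adjusted by Benjamini and Hochberg's method over all rows tested, with a threshold of 0.05. A quasi-likelihood test needs 2 groups and could not be fitted. TMM factors came from edgeR 4.0.16 and size factors from DESeq2 1.42.0. Named were all members, genes with the same seed and Mir503, the 3 genes nearest in level to Mir15a, and listed cell type markers. The members and lists were chosen with earlier results of these data known.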

Additional observations from a re-analysis of the deposited data

Results flagged for a closer look

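Reads on the own strand of Mir497b, outside the measurement used for Mir497, numbered 7 in replicate 1, above the 3 that a count of 0 allows, and 1 in replicate 2. The opposite strand of the same row, read as Mir497, held 2869 reads in replicate 1 and 1827 in replicate 2. The mature miR-497b lies at chr11:70234763-70234786 and overlaps the place of miR-497a-3p at chr11:70234770-70234790 on the other strand.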

How the results depend on the processing

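The summed level of the members, 12777 CPM as reported, kept within its spread with TMM (12779.5 CPM) and DESeq2 scaling (12776 CPM). With either library alone it was that library's own value, 12586 or 12968.5 CPM, which with 2 libraries says nothing of stability. It was 5419.6 per 1000000 of all reads, 12467 CPM with either-strand counts, 12142 CPM without Mir497b and 8776 CPM without Mir16-1 and Mir16-2, the last chosen after seeing the data. These shifts follow from larger denominators or fewer genes. Each member's own level moved beyond its spread only with all reads as the denominator, and the shares within pairs kept within theirs with either-strand counts. The number of members called stayed at 5 under 5 alternatives, but with TMM factors Mir497 was called and Mir16-1 was not. The other 28 of 30 recomputed log2 ratios kept their direction and their side of the threshold. Leaving out a library gives no ratio. No paired analysis was possible because the design has 1 group. At this depth the order of Mir16-2 and Mir497 was not resolved in replicate 2.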
